A study of Mus musculus with 12 samples.

Results

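The Wnt ligands, their receptors and co-receptors, their secreted antagonists and a few intracellular partners were followed in im-TEC, mouse tubular epithelial cells of the kidney that were conditionally immortalized. Members were the protein-coding genes of the count table whose symbol was Wnt, Fzd, Sfrp or Dkk followed by a number, with Lrp5, Lrp6, Ror1, Ror2, Ryk, Axin1, Axin2, Lef1, Tcf7, Rnf43 and Znrf3 added. This gave 48 of the 55487 genes in the table. The choice used symbols and no measured value, although earlier results of these data were known when it was made. The 4 groups, of 3 libraries each, were TGFβ at 10 ng/mL together with 50 µM of 5-amino-1-methylquinolinium, an inhibitor of NNMT (the combined group), TGFβ at 10 ng/mL alone, the inhibitor at 50 µM alone (NNMTi) and untreated control. All were collected at 48 h. NNMT, nicotinamide N-methyltransferase, transfers a methyl group from S-adenosylmethionine to nicotinamide. The cells of all groups carry the SV40 large T antigen, grow at 33 °C with interferon-gamma and had spent 7 days at 37 °C without it before seeding, and their growth medium holds serum, insulin, hydrocortisone and epidermal growth factor. They are 1 cell line, and the labels do not say that the libraries of a group came from separate cultures, so the p-values below measure only the spread between these libraries.

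Wnt proteins are secreted lipid-modified ligands that bind Frizzled receptors. With the co-receptors Lrp5 or Lrp6 they stop the Axin complex from marking β-catenin for destruction, and β-catenin then acts with TCF/LEF factors on target genes. Other Wnts act through Ror or Ryk receptors without β-catenin, and Dkk and Sfrp proteins hold the pathway back outside the cell. In the kidney, Wnt signalling builds the nephron in the embryo, is low in the healthy adult tubule and returns after injury.

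The libraries held 2584117 to 11866903 counts assigned to genes, TGFβ replicate 3 being the shallowest. TGFβ replicate 2 stood apart from the others of its group: limma gave it a quality weight of 0.146, against 0.674 to 1.9 for the other libraries. Of 15 tubular epithelial markers 12 had counts, with Epcam, Cldn3 and Mal2 at 0 and Cdh1 at no more than 0.355 CPM (counts scaled to a common library total) in any library. The summed level of that list was 685 to 717 CPM in the combined group, 707 to 1098 CPM with TGFβ, 1922 to 1980 CPM with NNMTi and 1890 to 2053 CPM in controls. Aqp1, a water channel gene, averaged 11.5, 25.2, 995 and 1013 CPM in those groups and was the main part of the sum without TGFβ. Of the 10 markers tested, 2 were higher with TGFβ than in controls, the keratin genes Krt8 (194.7 CPM in the combined group, 288 CPM with TGFβ, 27.3 CPM with NNMTi and 62.6 CPM in controls) and Krt18, and 5 were lower. Krt18 averaged 0.354, 3.75, 0.146 and 0.702 CPM in those groups. Outside the TGFβ group only control replicate 1 (1.56 CPM) reached the low-count filter level of 1.11 CPM, so Krt18 passed the filter through the TGFβ group. Of 8 fibroblast markers 5 had counts, with Pdgfra, Lum and Thy1 at 0, and their sum was 3.94 to 7.53, 14.2 to 17.6, 13.2 to 17.9 and 33.7 to 37.5 CPM in the same groups. The 3 tested genes of this list did not go one way with TGFβ over control: Islr was lower (log2 fold change -4.37, edgeR adjusted p = 8.86e-10), while Col1a2 (4.199, adjusted p = 1.92e-06) and Pdgfrb (3.34, adjusted p = 0.000239) were higher, both at under 1 CPM in every control. Col1a2 and Pdgfrb were under the filter level of 1.11 CPM in every NNMTi and control library. They thus passed the filter through groups with TGFβ, in which they were higher. Of 6 endothelial markers 3 had counts and of 6 immune markers 5 had, with Cdh5, Kdr, Emcn and Adgre1 at 0 and sums of no more than 6.7 and 79.1 CPM. Csf1r was the main part of the immune sum, at means of 23.2, 44.3, 60.8 and 68.6 CPM in the combined, TGFβ, NNMTi and control groups. What these shifts contribute to the Wnt results was not tested. In such bulk libraries, fewer cells expressing a gene and less RNA per cell cannot be told apart.

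Counts were found for 37 of the 48 members, and 22 passed the low-count filter and were tested. The tested members were 5 ligands (Wnt4, Wnt5a, Wnt7a, Wnt7b and Wnt9a), 7 Frizzled receptors (Fzd1, Fzd2, Fzd4, Fzd5, Fzd6, Fzd7 and Fzd8), 4 co-receptors or alternative receptors (Lrp5, Lrp6, Ror1 and Ryk), 1 secreted Dkk protein (Dkk3), both axins, Lef1, Tcf7 and the ubiquitin ligase gene Znrf3. The filter kept genes at about 1.11 CPM or more in at least one group's worth of libraries, and 19 of the 22 met that level in every library. Axin2, Lef1 and Ror1 did not, so that these could pass through the groups in which they were higher. Another 11 members had no count in any of the 12 libraries: Wnt2, Wnt3a, Wnt9b, Fzd3, Fzd10, Ror2, Dkk1, Dkk4, Sfrp1, Sfrp2 and Sfrp5. A count of 0 over a group allows a level of up to 0.112 to 0.126 CPM, for counting error only. Ror2, which binds Wnt5a, and Wnt9b, which the kidney's collecting system uses to induce nephrons, were thus not detectable at this depth.

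The remaining 15 members had between 1 and 39 counts over all libraries and were not tested. They were Wnt1, Wnt2b, Wnt3, Wnt5b, Wnt6, Wnt8a, Wnt8b, Wnt10a, Wnt10b, Wnt11, Wnt16, Fzd9, Dkk2, Sfrp4 and Rnf43. Wnt1, a ligand that signals through β-catenin, had 6, 4 and 6 counts in the combined libraries, 2, 6 and 0 with TGFβ, and 0 in all NNMTi and control libraries. With the groups at 0 set to a floor of 3 counts, its level was 5.49-fold higher in the combined than in the NNMTi group. By the same floor it was 2.91-fold higher with TGFβ than in controls. Wnt10b had 4, 3 and 0 counts with TGFβ and 0 in the other 9 libraries. By that floor it was 2.55-fold higher with TGFβ than in controls and 2.55-fold lower in the combined than in the TGFβ group. Wnt10a was spread over all groups, with 2, 16, 3 and 10 counts summed over the combined, TGFβ, NNMTi and control libraries. The folds leave out the counting error of the group that held counts, so they are not lower bounds. These few counts carry no test.

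In the fit of all libraries TGFβ changed most of the tested members, in the presence and in the absence of the inhibitor. With TGFβ against control, 13 of 22 passed an edgeR adjusted p below 0.05, 7 higher and 6 lower, which is 59.1% of the tested members. Of all 13581 tested genes 36.5% passed, 19.4% higher and 17.1% lower. Members passing were 10 to 12 with any 1 library left out and 10 when only the TGFβ and control libraries were fitted. Over all genes these numbers were 4038 to 5166 and 3968, against 4961 with all libraries. In the combined group against NNMTi, 14 of 22 passed, 8 higher and 6 lower, or 63.6%, where 36.3% of all genes passed, 18% higher and 18.3% lower. The inhibitor alone changed 4 members against control, 1 higher and 3 lower, or 18.2%, where 8.27% of all genes passed, 2.47% higher and 5.8% lower. The combined group differed from TGFβ in 3, 1 higher and 2 lower, or 13.6%, where 10.4% of all genes passed, 3.45% higher and 6.97% lower. Median log2 fold changes of the 22 members in these comparisons, in the same order, were 0.07, 0.18, -0.22 and -0.02, beside 0.02, 0.00, 0.01 and -0.02 over all tested genes. Some of these comparisons share libraries, so their values are given side by side and were not compared as independent results.

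**Figure D1:**
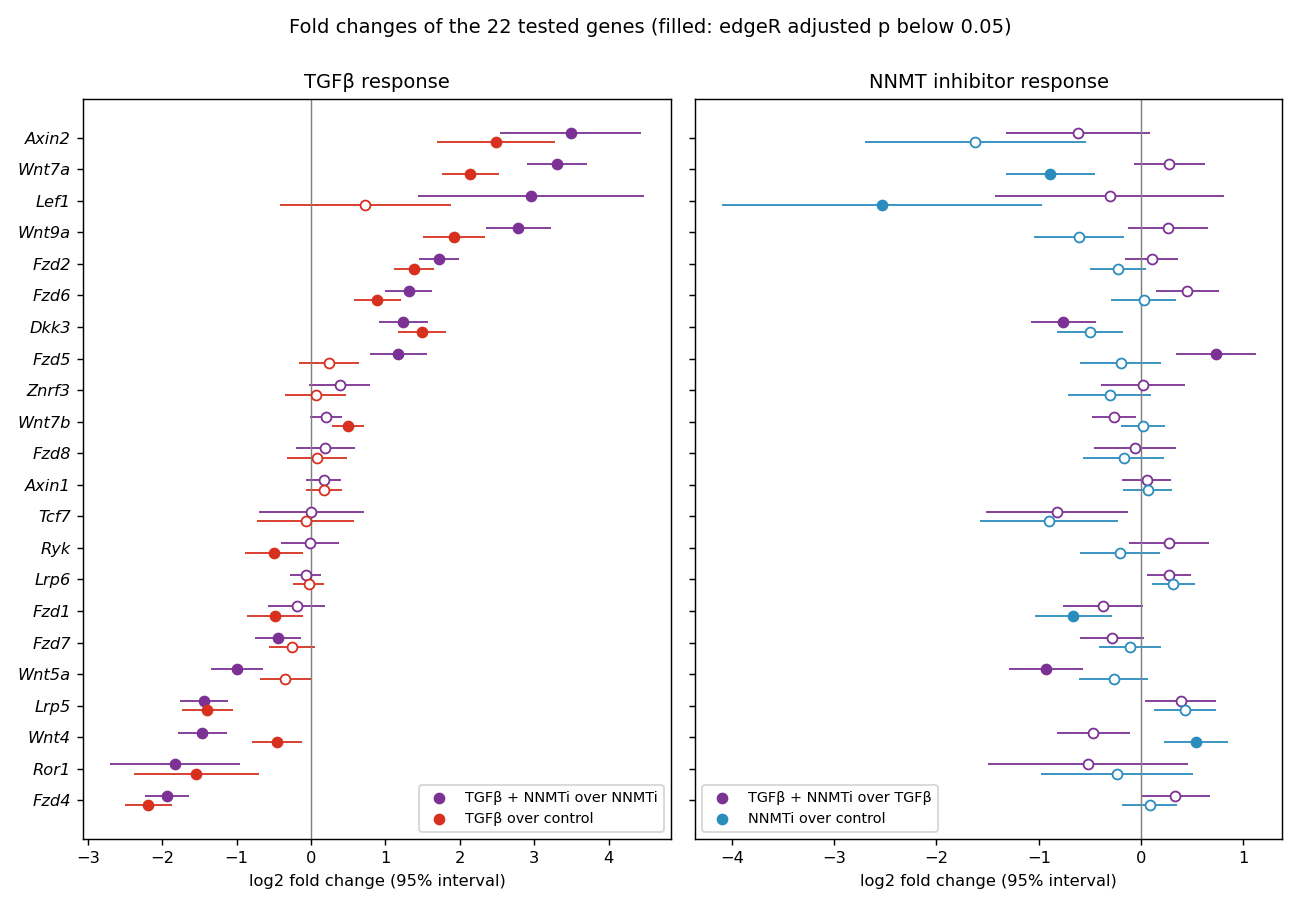
Log2 fold changes with 95% intervals of the 22 tested genes. The left panel shows TGFβ + NNMTi over NNMTi and TGFβ over control, the right panel TGFβ + NNMTi over TGFβ and NNMTi over control, and filled points passed an edgeR adjusted p below 0.05. Axin2, Wnt7a and Wnt9a lie far to the right and Fzd4, Ror1 and Lrp5 far to the left in both TGFβ comparisons.

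Among the ligands, TGFβ raised Wnt7a and Wnt9a several-fold and Wnt7b by a smaller amount. Wnt7a (ENSMUSG00000030093), which patterns the limb and the female reproductive tract and signals through β-catenin in many cells, was at 63.6, 62.6 and 47.8 CPM in the combined libraries, 44.8, 41.9 and 60.1 CPM with TGFβ, 7.05, 6.03 and 4.48 CPM with NNMTi and 10.2, 12.5 and 9.98 CPM in controls. Every library that received TGFβ lay above every library that did not. The log2 fold change was 2.14 ± 0.18 (SE, n = 3 and 3) for TGFβ over control, a 4.42-fold difference (edgeR adjusted p = 3.38e-08), and 3.31 ± 0.19 for the combined group over NNMTi, a 9.90-fold difference (adjusted p = 1.62e-10). Wnt9a (ENSMUSG00000000126), a ligand known from joint and blood stem cell development, was at 109, 89.7 and 99.2 CPM in the combined libraries, 85.8, 55.8 and 113 CPM with TGFβ, 13.2, 16.3 and 13.6 CPM with NNMTi and 23.5, 19.4 and 22.9 CPM in controls. Its TGFβ libraries varied by about 2-fold among themselves, with replicate 2 the lowest, and still did not overlap the controls. The log2 fold change was 1.92 ± 0.20 for TGFβ over control (adjusted p = 1.25e-06) and 2.79 ± 0.20 for the combined group over NNMTi (adjusted p = 1.68e-08), and without TGFβ replicate 2 the first was 2.14.

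Wnt7b (ENSMUSG00000022382), which in the embryo is made by the collecting duct and is needed to form the renal medulla, was at 165, 145 and 138 CPM in the combined libraries, 168, 198 and 171 CPM with TGFβ, 129, 129 and 132 CPM with NNMTi and 137, 130 and 117 CPM in controls. All TGFβ libraries were above all controls, with a log2 fold change of 0.49 ± 0.10 (edgeR adjusted p = 0.000955). The combined libraries were also above the NNMTi libraries, but the log2 difference of 0.20 ± 0.10 did not pass (adjusted p = 0.13).

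**Figure D2:**
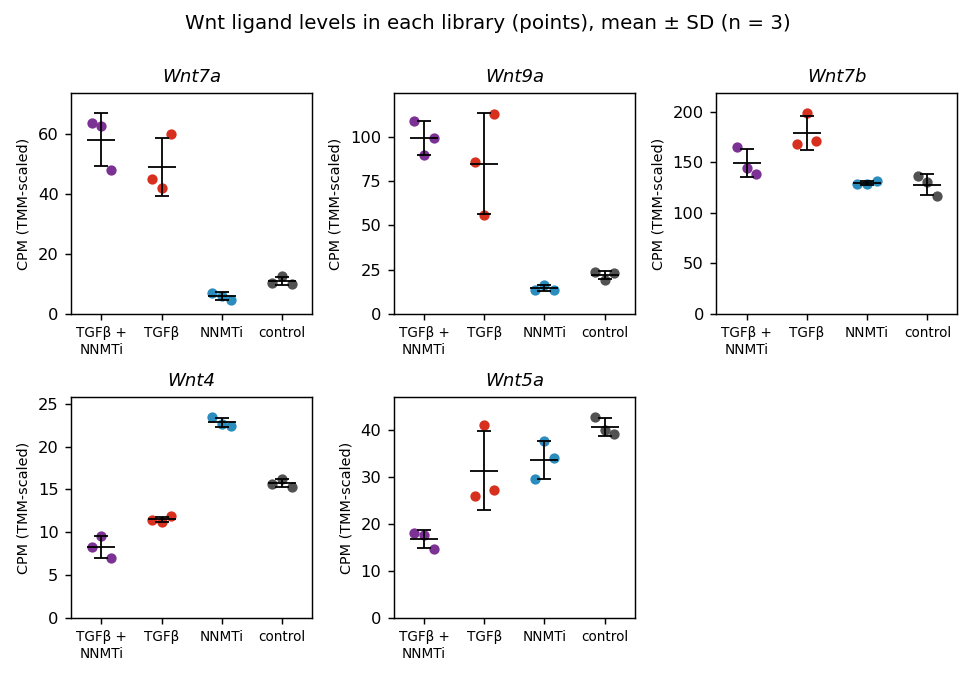
Levels of the 5 tested Wnt ligands in CPM scaled by TMM, on linear axes from 0, in the TGFβ + NNMTi, TGFβ, NNMTi and control libraries. Points are libraries and bars the mean ± SD of 3; Wnt7a and Wnt9a are highest in both groups with TGFβ, and Wnt4 is highest with NNMTi alone and lowest in the combined group.

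Wnt4 and Wnt5a went the other way. Wnt4 (ENSMUSG00000036856), which turns embryonic kidney mesenchyme into nephron epithelium, was at 8.22, 9.55 and 7.00 CPM in the combined libraries, 11.4, 11.2 and 11.9 CPM with TGFβ, 23.4, 22.7 and 22.4 CPM with NNMTi and 15.6, 16.2 and 15.3 CPM in controls. The 4 groups did not overlap at all. In the combined group it was lower than with NNMTi by a log2 fold change of -1.46 ± 0.16 (edgeR adjusted p = 6.44e-07). The TGFβ to control difference was smaller, at -0.46 ± 0.16 (adjusted p = 0.0319), and this call ended when any control library, TGFβ replicate 1 or TGFβ replicate 2 was left out (adjusted p = 0.0646 to 0.0874). Wnt5a (ENSMUSG00000021994), the best known ligand of the β-catenin-independent branch, was at 18.1, 17.6 and 14.7 CPM in the combined libraries, 26.0, 41.0 and 27.2 CPM with TGFβ, 29.5, 37.6 and 34.0 CPM with NNMTi and 42.7, 40.0 and 39.1 CPM in controls. The combined libraries were the lowest 3 of all 12. They were below TGFβ by a log2 fold change of -0.93 ± 0.17 (adjusted p = 0.00186) and below NNMTi by -1.001 ± 0.168 (adjusted p = 0.000117). TGFβ replicate 2 lay among the controls, and with it TGFβ and control did not differ by the test (-0.35 ± 0.16, adjusted p = 0.108), whereas without it the log2 fold change was -0.63 (adjusted p = 0.00131). Without that library the fold change of the combined group over TGFβ was -0.64 (adjusted p = 0.00695).

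The Frizzled receptors divided into Fzd2 and Fzd6, which were higher with TGFβ, and Fzd4, which was lower. Fzd4 (ENSMUSG00000049791), a Wnt receptor that also binds the eye and ear ligand norrin, was at 11.1, 13.5 and 10.7 CPM in the combined libraries, 9.26, 9.65 and 8.80 CPM with TGFβ, 40.4, 45.7 and 49.4 CPM with NNMTi and 39.7, 46.9 and 41.1 CPM in controls. The libraries with and without TGFβ were far apart. Fzd4 was 4.55-fold lower with TGFβ than in controls, a log2 fold change of -2.19 ± 0.15 (edgeR adjusted p = 1.88e-09), and its log2 fold change in the combined group over NNMTi was -1.94 ± 0.14 (adjusted p = 3.25e-09). Fzd2 (ENSMUSG00000050288), a receptor for both Wnt branches, was at 148, 101 and 135 CPM in the combined libraries, 119, 115 and 124 CPM with TGFβ, 38.4, 42.8 and 35.7 CPM with NNMTi and 45.4, 45.5 and 45.8 CPM in controls. It did not overlap between libraries with and without TGFβ, and its log2 fold change was 1.39 ± 0.13 over control (adjusted p = 1e-07) and 1.72 ± 0.13 over NNMTi (adjusted p = 4.35e-09). Fzd6 (ENSMUSG00000022297), known from hair patterning and planar cell polarity, was at 137, 105 and 108 CPM in the combined libraries, 87.8, 64.5 and 107 CPM with TGFβ, 44.6, 49.8 and 46.0 CPM with NNMTi and 47.9, 45.4 and 44.5 CPM in controls. It too separated by TGFβ, with TGFβ replicate 2 nearest to the controls, at log2 fold changes of 0.89 ± 0.15 (adjusted p = 0.000142) and 1.32 ± 0.15 (adjusted p = 1.26e-06).

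**Figure D3:**
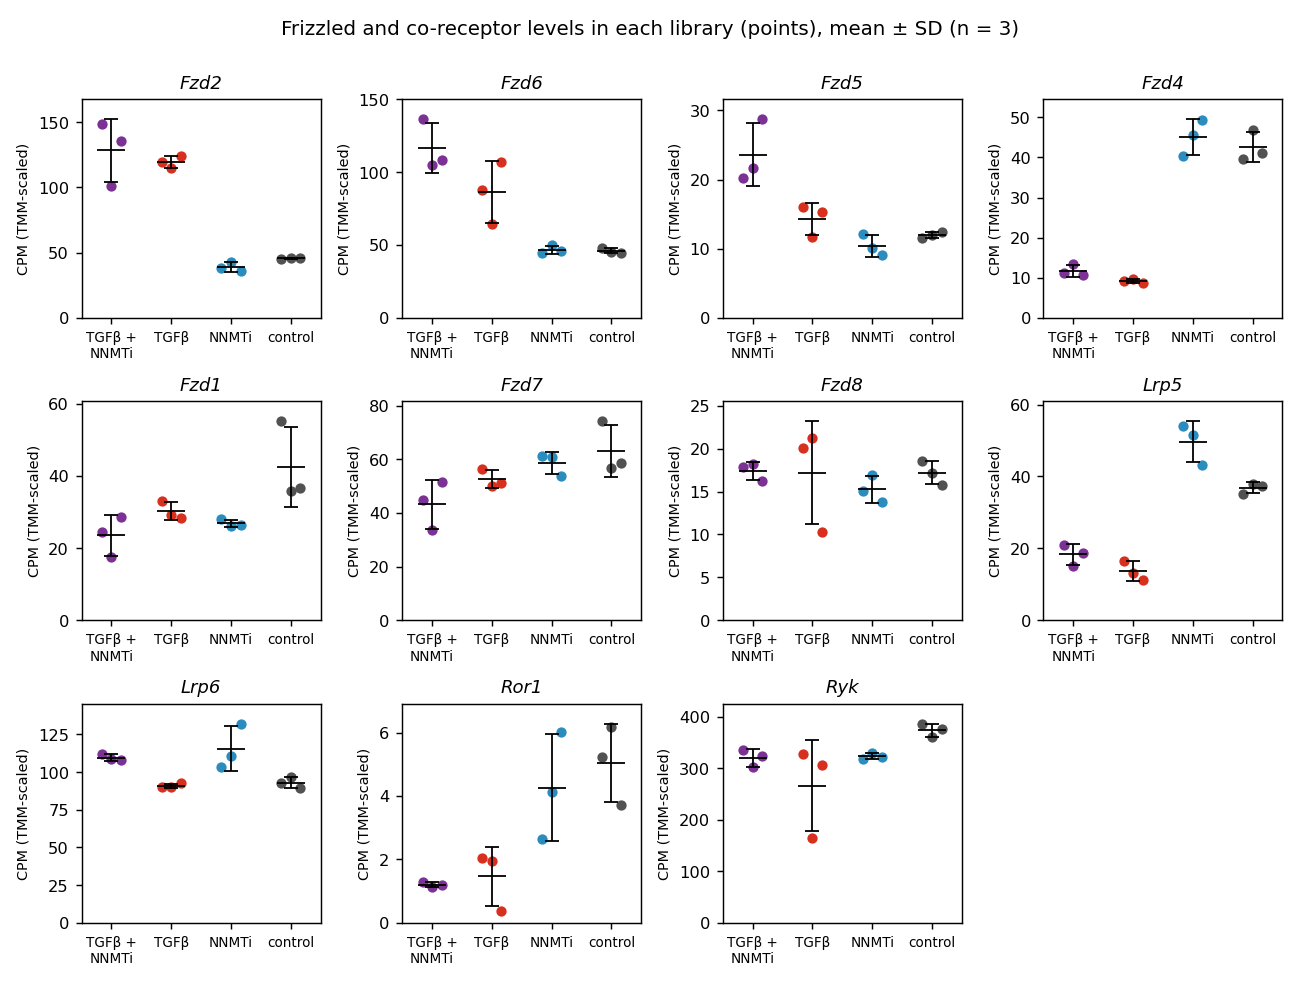
Levels of the 7 tested Frizzled receptors and 4 tested co-receptors or alternative receptors in CPM scaled by TMM, on linear axes from 0, in the TGFβ + NNMTi, TGFβ, NNMTi and control libraries. Points are libraries and bars the mean ± SD of 3; Fzd2 and Fzd6 are higher, and Fzd4, Lrp5 and Ror1 lower, in both groups with TGFβ.

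Fzd5, Fzd1 and Fzd7 each passed in 1 or 2 comparisons. Fzd5 (ENSMUSG00000045005), a receptor for β-catenin signalling in gut and eye, was at 20.3, 21.7 and 28.8 CPM in the combined libraries, 16.1, 11.7 and 15.3 CPM with TGFβ, 12.1, 10.1 and 9.06 CPM with NNMTi and 11.5, 12.0 and 12.4 CPM in controls. The combined libraries were above all others, and the TGFβ libraries overlapped the controls. It was higher in the combined group than with NNMTi (log2 fold change 1.18 ± 0.18, edgeR adjusted p = 5.51e-05) and than with TGFβ (0.73 ± 0.18, adjusted p = 0.0167). This second call ended without TGFβ replicate 2 (adjusted p = 0.0551) and without combined replicate 3 (adjusted p = 0.0933). Fzd1 (ENSMUSG00000044674), which binds Wnts of the β-catenin branch, was at 24.5, 17.4 and 28.7 CPM in the combined libraries, 33.0, 29.1 and 28.3 CPM with TGFβ, 28.0, 26.1 and 26.4 CPM with NNMTi and 55.1, 35.7 and 36.6 CPM in controls. All controls were above all TGFβ and all NNMTi libraries, with control replicate 1 well above the other two. Its log2 fold change was -0.49 ± 0.18 for TGFβ over control (adjusted p = 0.0431), but without control replicate 1 it was -0.26 (adjusted p = 0.302), and leaving out any of the TGFβ libraries also ended the call (adjusted p = 0.0518 to 0.081).

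Fzd7 (ENSMUSG00000041075), a receptor active in stem cells of the gut, was at 44.9, 33.5 and 51.5 CPM in the combined libraries, 56.5, 50.1 and 51.3 CPM with TGFβ, 61.2, 60.9 and 53.8 CPM with NNMTi and 74.2, 56.8 and 58.5 CPM in controls. The combined libraries lay below the NNMTi libraries, with a log2 fold change of -0.44 ± 0.15 (edgeR adjusted p = 0.0245). That call ended without NNMTi replicate 1 or 2 or combined replicate 1 or 2, and without combined replicate 2 the value was -0.27 (adjusted p = 0.163). Fzd8 averaged 17.4 ± 1.0, 17.2 ± 6.0, 15.2 ± 1.6 and 17.2 ± 1.4 CPM (SD, n = 3 each) in the combined, TGFβ, NNMTi and control groups and passed no test. Its 95% interval for TGFβ over control ran between log2 fold changes of -0.32 and 0.49.

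Of the co-receptors, Lrp5 was lower with TGFβ and Lrp6 was not called in any comparison. Lrp5 (ENSMUSG00000024913), one of the pair of co-receptors that carry the β-catenin signal, was at 21.1, 15.2 and 18.8 CPM in the combined libraries, 16.6, 13.1 and 11.1 CPM with TGFβ, 54.2, 51.6 and 43.2 CPM with NNMTi and 35.1, 38.0 and 37.4 CPM in controls. No library with TGFβ reached the lowest one without it. The log2 fold change was -1.39 ± 0.16 over control (edgeR adjusted p = 1.88e-06) and -1.44 ± 0.15 over NNMTi (adjusted p = 5.24e-07). Lrp6, its close relative, averaged 110 ± 2, 90.9 ± 1.5, 116 ± 15 and 93.0 ± 3.7 CPM in the combined, TGFβ, NNMTi and control groups. For TGFβ over control its 95% interval ran from -0.25 to 0.18 on the log2 scale.

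Ror1 (ENSMUSG00000035305), a receptor tyrosine kinase-like protein for Wnt5a, was at 1.27, 1.124 and 1.19 CPM in the combined libraries, 2.05, 1.95 and 0.383 CPM with TGFβ, 2.64, 4.14 and 6.01 CPM with NNMTi and 5.25, 6.17 and 3.73 CPM in controls. The libraries with TGFβ were all below those without it, at levels near the filter. Its log2 fold change was -1.54 ± 0.40 over control (edgeR adjusted p = 0.00538) and -1.82 ± 0.42 over NNMTi (adjusted p = 0.00201). Ryk (ENSMUSG00000032547), an atypical Wnt receptor that guides axons, was at 335, 301 and 323 CPM in the combined libraries, 327, 164 and 307 CPM with TGFβ, 318, 330 and 321 CPM with NNMTi and 385, 360 and 376 CPM in controls. TGFβ replicate 2 was far below the other TGFβ libraries, which themselves were below all controls. The log2 fold change for TGFβ over control was -0.50 ± 0.18 (adjusted p = 0.0482) with that library and -0.24 without it (adjusted p = 0.0162). The call ended when any control, NNMTi or combined library was left out (adjusted p = 0.0737 to 0.109). Ror1 and Ryk, like Lef1 and Tcf7, overlap another annotated gene on the same strand. Reads of the shared stretch may have been set aside as ambiguous or counted with either gene, and the effect on these counts was not tested.

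Dkk3, the only member of the antagonist families tested, was raised by TGFβ and was lower in the combined group than with TGFβ alone. Dkk3 (ENSMUSG00000030772) is a divergent Dkk protein that stressed tubular cells secrete, and unlike Dkk1 it is not known as a plain Lrp6 blocker. It was at 193, 216 and 191 CPM in the combined libraries, 258, 446 and 309 CPM with TGFβ, 95.5, 77.7 and 80.5 CPM with NNMTi and 121, 119 and 119 CPM in controls. The 4 groups did not overlap, and TGFβ replicate 2 was the highest of all libraries. The log2 fold change was 1.498 ± 0.154 for TGFβ over control (edgeR adjusted p = 9e-07) and 1.24 ± 0.15 for the combined group over NNMTi (adjusted p = 7.01e-06). In the combined group it was below TGFβ by -0.76 ± 0.15 (adjusted p = 0.00426), and without TGFβ replicate 2 this difference was -0.49 (adjusted p = 0.00101). The secreted Sfrp antagonists were near absent: Sfrp4 had 1, 4, 1 and 1 counts over the combined, TGFβ, NNMTi and control groups.

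Axin2, a scaffold of the destruction complex that is itself a classic β-catenin target, was the member with the largest rise in both TGFβ comparisons. Axin2 (ENSMUSG00000000142) was at 7.41, 5.06 and 8.19 CPM in the combined libraries, 14.4, 6.64 and 10.7 CPM with TGFβ, 0.991, 0.355 and 0.437 CPM with NNMTi and 2.68, 1.09 and 1.81 CPM in controls. All libraries with TGFβ were above all without it. The NNMTi libraries were below all controls only narrowly, as NNMTi replicate 1 and control replicate 2 each held 9 counts. The log2 fold change was 2.48 ± 0.38 for TGFβ over control, a 5.59-fold difference (edgeR adjusted p = 4.39e-05), and 3.49 ± 0.45 for the combined group over NNMTi, an 11.2-fold difference (adjusted p = 6.54e-06). Axin2 reached the filter level of 1.11 CPM in every library with TGFβ, in 2 controls and in 0 NNMTi libraries. It thus passed the filter through the groups with TGFβ, and the second fold rests on 9, 3 and 4 counts in the NNMTi libraries. Axin1, the constitutive form of the scaffold, averaged 60.0 ± 6.9, 58.1 ± 4.9, 53.4 ± 1.2 and 51.2 ± 2.8 CPM in the combined, TGFβ, NNMTi and control groups and was not called. Its 95% interval for TGFβ over control ran from -0.07 to 0.42 on the log2 scale.

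Of the TCF/LEF factors, Lef1 (ENSMUSG00000027985) was at 2.32, 1.01 and 1.32 CPM in the combined libraries, 0.862, 2.92 and 1.91 CPM with TGFβ, 0.110, 0.118 and 0.328 CPM with NNMTi and 1.34, 1.45 and 0.706 CPM in controls. The NNMTi libraries held the 3 lowest values of all 12, with 1, 1 and 3 counts and none at the filter level of 1.11 CPM. Lef1 was higher in the combined group than with NNMTi by a log2 fold change of 2.96 ± 0.72 (edgeR adjusted p = 0.00343), and TGFβ and control libraries overlapped. Tcf7 averaged 2.90 ± 0.83, 5.28 ± 1.47, 2.91 ± 0.89 and 5.45 ± 0.63 CPM in the combined, TGFβ, NNMTi and control groups. Both inhibitor groups lay below their counterparts without overlap, but neither difference passed (adjusted p = 0.126 for the combined group over TGFβ and 0.0964 for NNMTi over control). Znrf3, which removes Frizzled receptors from the cell surface, averaged 21.0 ± 0.6, 20.7 ± 6.6, 16.04 ± 1.08 and 19.9 ± 3.3 CPM in the same groups and was not called.

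**Figure D4:**
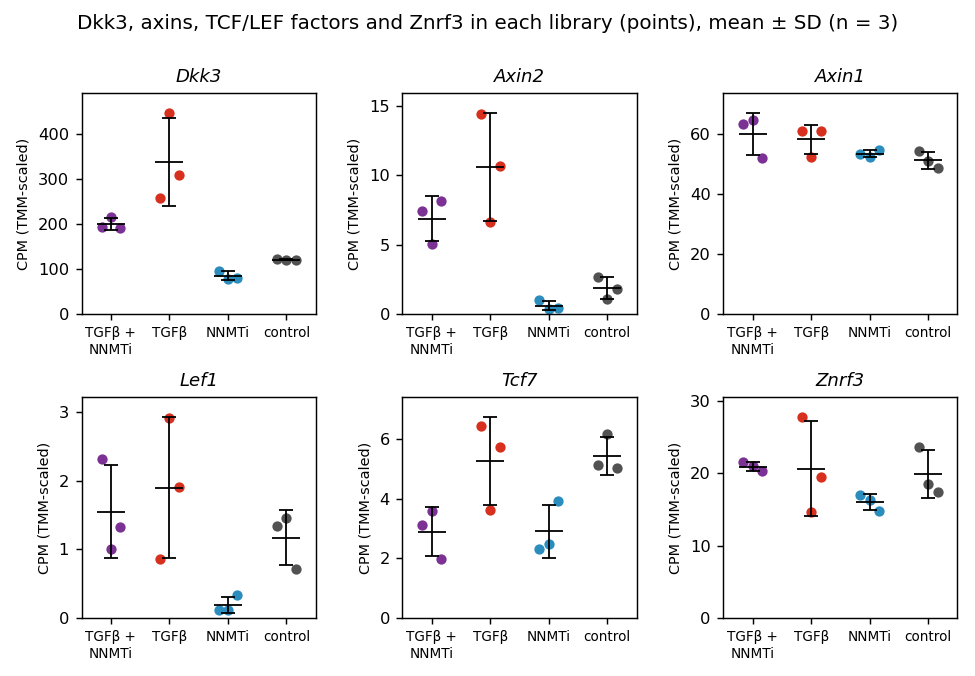
Levels of Dkk3, Axin2, Axin1, Lef1, Tcf7 and Znrf3 in CPM scaled by TMM, on linear axes from 0, in the TGFβ + NNMTi, TGFβ, NNMTi and control libraries. Points are libraries and bars the mean ± SD of 3; Dkk3 and Axin2 are higher in both groups with TGFβ, and Lef1 is lowest with NNMTi alone.

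The promoters of the 4 members with the largest absolute fold changes for TGFβ over control are shown as those that differed most in that comparison. Each is the 250 bases before the annotated start in RefSeq (GRCm38.p6), read in the direction of the gene, with the SMAD box CAGACA in capitals where it occurs.
Wnt7a, chr6:91411354-91411603, minus strand: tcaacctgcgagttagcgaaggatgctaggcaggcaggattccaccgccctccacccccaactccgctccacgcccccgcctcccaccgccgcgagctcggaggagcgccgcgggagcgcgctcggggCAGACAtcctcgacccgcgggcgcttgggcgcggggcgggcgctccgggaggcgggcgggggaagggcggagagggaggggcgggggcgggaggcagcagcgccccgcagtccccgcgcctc
Wnt9a, chr11:59306680-59306929, plus strand: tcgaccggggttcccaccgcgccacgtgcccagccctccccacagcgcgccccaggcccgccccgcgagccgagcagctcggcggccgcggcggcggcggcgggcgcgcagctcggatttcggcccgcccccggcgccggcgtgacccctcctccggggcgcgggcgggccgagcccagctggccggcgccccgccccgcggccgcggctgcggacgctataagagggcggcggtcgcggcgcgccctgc
Axin2, chr11:108920099-108920348, plus strand: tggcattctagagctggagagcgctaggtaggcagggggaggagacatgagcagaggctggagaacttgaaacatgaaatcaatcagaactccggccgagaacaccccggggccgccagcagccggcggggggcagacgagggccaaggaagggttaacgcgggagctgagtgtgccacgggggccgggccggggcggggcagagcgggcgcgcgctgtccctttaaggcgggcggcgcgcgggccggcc
Fzd4, chr7:89404116-89404365, plus strand: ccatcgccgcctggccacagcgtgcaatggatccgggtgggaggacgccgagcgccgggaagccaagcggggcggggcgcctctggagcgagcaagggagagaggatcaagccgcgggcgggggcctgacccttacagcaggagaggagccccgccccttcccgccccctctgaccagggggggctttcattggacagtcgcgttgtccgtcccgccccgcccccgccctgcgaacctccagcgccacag
The Wnt7a stretch held 1 SMAD box, 122 bases before the start, and the other 3 held none. All 4 were rich in G and C, at 77.6%, 84.4%, 69.2% and 72.8% in the order shown, where the median of all 32851 promoters was 52.4%. They held 34, 48, 24 and 25 CpG pairs, against a median of 6. The TCF/LEF motif, written as ATCAAAG or TTCAAAG on either strand, was in none of these 4 nor in any of the 16 promoters found for 12 of the 22 tested members, and in 7.48% of all promoters. The SMAD palindrome GTCTAGAC was in none of the 16 and in 0.167% of all. CAGACA or its complement TGTCTG was in 2 of the 16, those of Lef1 and Wnt7a, and in 17.1% of all. These are matches of letters in a short window and say nothing of binding.

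The inhibitor alone changed Wnt4, Wnt7a, Fzd1 and Lef1. Against control, Wnt4 was higher by a log2 fold change of 0.54 ± 0.15 (edgeR adjusted p = 0.0308), while Wnt7a was lower by -0.89 ± 0.21 (adjusted p = 0.0111), Fzd1 by -0.66 ± 0.18 (adjusted p = 0.0274) and Lef1 by -2.53 ± 0.75 (adjusted p = 0.0423). In each of the 4 the NNMTi and control libraries did not overlap, but for Lef1 the NNMTi libraries held only 1, 1 and 3 counts. Each of the 4 calls ended in some fits with 1 library left out. That of Wnt7a ended without control replicate 2 (adjusted p = 0.0644) or NNMTi replicate 3 (adjusted p = 0.0705). Those of Wnt4 and Lef1 ended whichever of the 6 libraries was left out, while the Wnt4 value stayed at 0.50 to 0.56. Calls over all genes fell in these 6 fits too, from 1123 to between 591 and 684. Lef1 also ended without combined replicate 3 (adjusted p = 0.0514). The call of Fzd1 ended without control replicate 1, where its value was -0.43 (adjusted p = 0.207), or any NNMTi library.

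Several other members separated NNMTi from control without overlap and did not pass. Axin2 had a log2 fold change of -1.62 ± 0.52 (edgeR adjusted p = 0.0621), Dkk3 -0.50 ± 0.15 (adjusted p = 0.0548), Wnt9a -0.61 ± 0.21 (adjusted p = 0.088), Lrp5 0.43 ± 0.15 (adjusted p = 0.08) and Lrp6 0.31 ± 0.10 (adjusted p = 0.064). Tcf7, given above, separated too, as did Fzd2 (-0.23, adjusted p = 0.335), Wnt5a (-0.27, adjusted p = 0.356), Ryk (-0.21, adjusted p = 0.569) and Znrf3 (-0.31, adjusted p = 0.396). How many of all tested genes separated in this way was not counted. The number of members called for NNMTi over control was 4 of 22 with all libraries, 9 of 20 when only the 6 control and NNMTi libraries were filtered and fitted, and 11 of 22 without TGFβ replicate 2. The biological coefficient of variation was 0.0775 in those 6 libraries and 0.137 in all 12.

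Added to TGFβ, the inhibitor lowered Wnt5a and Dkk3 and raised Fzd5, with the values given above, and changed no other tested member by the test. Wnt7a and Wnt9a, raised by TGFβ, had 95% intervals of -0.07 to 0.62 and -0.13 to 0.65 on the log2 scale for the combined group over TGFβ, and Fzd4, lowered by TGFβ, had 0.00 to 0.67. Fzd6 had a log2 difference of 0.45 ± 0.15 (edgeR adjusted p = 0.0583) and Wnt4 of -0.47 ± 0.17 (adjusted p = 0.0856), Wnt4 with no overlap between the groups. Wnt7b, Tcf7, Fzd4 and Lrp6 did not overlap between these groups either, and did not pass. For Tcf7 the highest combined library (3.60 CPM) was only just below the lowest TGFβ library (3.63 CPM). The share of all tested genes that separated in this comparison was not counted.

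The effect of the inhibitor in the presence of TGFβ was set against its effect without TGFβ by an interaction test, which called 2 of 22 members, 1 higher and 1 lower. This was 9.09%, where 1.11% of all tested genes passed, 0.641% higher and 0.471% lower. For Wnt7a the inhibitor effect was higher with TGFβ by 1.17 ± 0.26 on the log2 scale (edgeR adjusted p = 0.0365). Its log2 difference was 0.28 ± 0.16 for the combined group over TGFβ and -0.89 ± 0.21 for NNMTi over control. For Wnt4 it was lower by -1.01 ± 0.23 (adjusted p = 0.0339), with -0.47 ± 0.17 for the combined group over TGFβ and 0.54 ± 0.15 for NNMTi over control. Both calls ended when single libraries were left out, with adjusted p of up to 0.14 for Wnt7a and up to 0.116 for Wnt4, and that of Wnt4 also without the low-count filter (adjusted p = 0.0522). Fzd5 and Wnt9a had interaction values of 0.93 ± 0.27 (adjusted p = 0.121) and 0.87 ± 0.28 (adjusted p = 0.197) and did not pass. Wnt5a (-0.66 ± 0.23, adjusted p = 0.261) and Dkk3 (-0.26 ± 0.21, adjusted p = 0.74) did not pass either. The log2 difference of Dkk3 was -0.76 ± 0.15 for the combined group over TGFβ and -0.50 ± 0.15 for NNMTi over control.

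Summed over all ligand genes, Wnt counts were 366, 324 and 308 CPM in the combined libraries, 338, 351 and 384 CPM with TGFβ, 202, 212 and 206 CPM with NNMTi and 230, 219 and 204 CPM in controls. The sums with and without TGFβ did not overlap. The ratio of means was 1.64 for TGFβ over control and 1.61 for the combined group over NNMTi, each with an exact two-sided permutation p = 0.1, the smallest that 3 against 3 libraries allow. Frizzled sums were 403, 310 and 379 CPM in the combined libraries, 342, 301 and 345 CPM with TGFβ, 240, 252 and 234 CPM with NNMTi and 292, 260 and 255 CPM in controls. They also separated by TGFβ, with ratios of 1.23 and 1.505 in the same comparisons (exact permutation p = 0.1 for both). The libraries read transcript ends, so counts do not scale with transcript length and can be summed across genes.

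The make-up of the ligand pool shifted with TGFβ while Wnt7b stayed its largest part. Wnt7b made up 44.8 ± 0.3% of ligand counts in the combined group, 50.3 ± 6.0% with TGFβ, 62.7 ± 1.7% with NNMTi and 58.7 ± 1.4% in controls (SD, n = 3 each). Wnt9a and Wnt7a were 29.9 ± 2.3% and 17.4 ± 1.9% in the combined group and 23.6 ± 6.9% and 13.6 ± 1.9% with TGFβ, against 6.95 ± 0.66% and 2.83 ± 0.66% with NNMTi and 10.1 ± 1.2% and 5.00 ± 0.65% in controls. Wnt5a was 5.04 ± 0.35%, 8.82 ± 2.51%, 16.3 ± 1.6% and 18.7 ± 0.4% in the same 4 groups. Among receptors, Fzd4 was 3.31 ± 0.90% of Frizzled counts in the combined group and 2.82 ± 0.34% with TGFβ, against 18.7 ± 2.2% with NNMTi and 15.9 ± 2.2% in controls. Fzd2 was 35.0 ± 2.2%, 36.3 ± 1.7%, 16.1 ± 0.9% and 17.0 ± 1.3% of them in those groups.

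**Figure D5:**
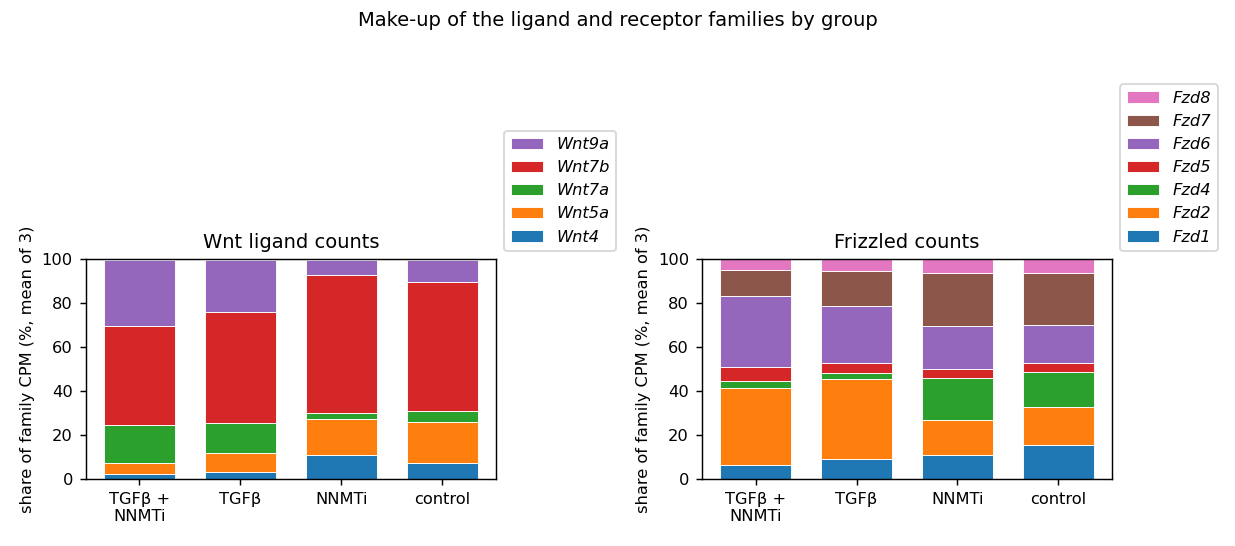
Mean share of each tested ligand in all Wnt counts and of each tested receptor in all Frizzled counts, in percent, stacked for the TGFβ + NNMTi, TGFβ, NNMTi and control groups (3 libraries each). Wnt9a and Wnt7a hold a larger share of ligand counts, and Fzd2 and Fzd6 of receptor counts, in the groups with TGFβ.

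Among genes that make and release Wnt ligands or modify them outside the cell, Porcn was higher and Notum and Wls lower with TGFβ. Of 8 tested genes on a list of 10, 3 were higher and 4 lower with TGFβ than in controls, where 36.5% of all tested genes passed, and 3 were higher and 3 lower in the combined group than with NNMTi, where 36.3% passed. Porcn, the acyltransferase that lipidates Wnts, was at 40.4 ± 3.4 CPM in the combined group, 22.7 ± 1.3 CPM with TGFβ, 11.6 ± 1.2 CPM with NNMTi and 8.51 ± 1.31 CPM in controls. Its log2 fold change was 1.41 ± 0.16 for TGFβ over control (edgeR adjusted p = 1.34e-06) and 0.83 ± 0.15 for the combined group over TGFβ (adjusted p = 0.00121). Porcn was the only gene of the list called for the combined group over TGFβ, where 10.4% of all tested genes passed. Notum, a secreted enzyme that strips the lipid and so inactivates Wnts, was at 0.463, 0.674 and 2.38 CPM in the combined libraries, 0.431, 0.0886 and 0.765 CPM with TGFβ, 5.62, 8.87 and 6.44 CPM with NNMTi and 5.92, 5.45 and 5.34 CPM in controls. No library with TGFβ reached one without it, and the log2 fold change was -4.10 ± 0.59 over control (adjusted p = 2.39e-05) and -2.60 ± 0.45 over NNMTi (adjusted p = 0.000154). Notum was under the filter level of 1.11 CPM in all TGFβ and 2 of the combined libraries, so that it passed the filter through the groups without TGFβ. Wls averaged 348 ± 22, 338 ± 47, 484 ± 12 and 490 ± 30 CPM in the combined, TGFβ, NNMTi and control groups. Its log2 fold change was -0.54 ± 0.10 for TGFβ over control (adjusted p = 0.000507). With NNMTi over control 0 of the 8 tested genes of the list passed, where 8.27% of all tested genes passed.

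Of 17 further antagonist and R-spondin pathway genes only 4 were tested, and 2, Tpbg and Lgr6, were higher with TGFβ than in controls, where 36.5% of all tested genes passed. The call of Tpbg, a membrane glycoprotein that holds back Wnt signalling, ended in several settings, with an edgeR adjusted p = 0.331 without TGFβ replicate 2, and that of Lgr6 without control replicate 3 (adjusted p = 0.0667). Lgr6, an R-spondin receptor, was at 6.74 ± 1.55 CPM in the combined group, 1.42 ± 0.24 CPM with TGFβ, 0.258 ± 0.349 CPM with NNMTi and 0.307 ± 0.193 CPM in controls. It was under the filter level in every NNMTi and control library and passed the filter through the groups with TGFβ. It was higher in the combined group than with TGFβ by a log2 fold change of 2.17 ± 0.48 (edgeR adjusted p = 0.0074). Of 23 tested genes of the intracellular relay, 3 were higher and 5 lower with TGFβ than in controls, a share near the 36.5% of all tested genes. Ctnnb1, which encodes β-catenin itself, averaged 771 ± 41, 700 ± 135, 772 ± 25 and 750 ± 19 CPM in the combined, TGFβ, NNMTi and control groups and was not called in any comparison. Tcf7l2, the main TCF factor of many epithelia, was at 233 ± 7, 194 ± 12, 510 ± 9 and 350 ± 3 CPM in those groups, with log2 fold changes of -0.86 ± 0.09 for TGFβ over control (adjusted p = 3.07e-07) and 0.54 ± 0.08 for NNMTi over control (adjusted p = 0.000356). Of 12 tested planar polarity and other non-canonical genes, 3 were higher and 2 lower with TGFβ than in controls, again near the share of all tested genes. Daam2, a formin that acts downstream of Dishevelled, was lower with NNMTi than in controls by -2.09 ± 0.30 (adjusted p = 0.000164) and in the combined group than with TGFβ by -1.49 ± 0.28 (adjusted p = 0.00224).

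Of the known β-catenin targets outside the family, some were higher and some lower with TGFβ or with NNMTi than in controls, and those that passed for the combined group over TGFβ were all lower. Of 13 tested on a list of 21, 3 were higher and 5 lower with TGFβ than in controls, with a median log2 fold change of -0.31, and 3 were higher and 5 lower with NNMTi than in controls, with a median of -0.32. Over all tested genes the medians were 0.02 and 0.01, and 36.5% and 8.27% passed. Notum, given above among the genes that modify Wnts, is also on this target list. It was 1 of the 5 lower with TGFβ than in controls and had the largest change there (log2 fold change -4.10). In the combined group over TGFβ, 0 were higher and 4 lower (Ccnd1, Fosl1, Sox9 and Cd44), where 10.4% of all tested genes passed, and the median log2 fold change of the 13 was 0.10. The call of Cd44 ended when only those groups were fitted (edgeR adjusted p = 0.091). Ccnd1, which encodes cyclin D1, averaged 12.4 ± 2.0 CPM in the combined group, 55.5 ± 10.3 CPM with TGFβ, 167 ± 9 CPM with NNMTi and 554 ± 9 CPM in controls. Its log2 fold changes were -3.35 ± 0.13 for TGFβ over control (edgeR adjusted p = 1.69e-12), -1.73 ± 0.12 for NNMTi over control (adjusted p = 4.29e-08) and -2.13 ± 0.14 for the combined group over TGFβ (adjusted p = 2.42e-08). Ccn4, a matricellular protein gene, was at 1293 ± 166 CPM in the combined group, 1206 ± 238 CPM with TGFβ, 85.6 ± 8.9 CPM with NNMTi and 175 ± 4 CPM in controls, a log2 fold change of 2.78 ± 0.14 for TGFβ over control (adjusted p = 2.35e-11). These targets have other inputs than β-catenin, and the list was not tested as a set.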

How the data were processed

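Messenger RNA was measured in 12 libraries made with a QuantSeq 3′ FWD kit from 100 ng of total RNA. The deposited values are whole-number counts per gene. The submitters' processing notes name STAR, HTSeq and GRCh38. That build is human and the gene identifiers are of the mouse, so the build of the counts is unclear and no gene position is taken from it. Promoter coordinates are those of RefSeq on GRCm38.p6. Versions and the strand used for counting are not given in the sources used here. Of the 48 members, 17 overlap another annotated gene. Symbols were found for 55227 of 55487 identifiers. Reads outside genes were 21.1 to 26.8% and ambiguous reads 0.613 to 0.802% of the counts, and both were left out.

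Genes were filtered with filterByExpr (13581 left of 23630 with a count), scaled by TMM and tested with edgeR 4.0.16 quasi-likelihood F-tests (R 4.3.3) in 1 model of the 4 groups, with Benjamini-Hochberg adjustment over all tested genes and a threshold of 0.05. CPM are TMM-scaled. The interaction is the combined group minus TGFβ, less NNMTi minus control. Replicates differed by chi-square values of 3.23 to 40.8 per degree of freedom, so none was a duplicate. All tested members are described, and at most 4 called genes for each pathway list and comparison, those with the largest fold changes, could be named. Ctnnb1 and Wls were named outside this rule, with their values known. Members, lists and tests were chosen with earlier results of these data known. The procedure was tested on simulated counts. Alternatives were DESeq2 1.42.0, limma 3.58.1 with voom quality weights, other scalings, no filter, 2-group fits, a replicate block and leaving out libraries. Leaving out TGFβ replicates 2 and 3 together, and the alternatives for family sums and pathway genes, were chosen after seeing the data. Floors and intervals of counts cover counting error only.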

Additional observations from a re-analysis of the deposited data

Results flagged for a closer look

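The response of Wnt7a to the inhibitor differed with and without TGFβ: the interaction was 1.17 on the log2 scale (edgeR adjusted p = 0.0365). In both groups with TGFβ the 3 libraries of each overlapped (47.8 to 63.6 CPM in the combined group and 41.9 to 60.1 CPM with TGFβ), whereas NNMTi libraries were at 4.48 to 7.05 CPM and controls at 9.98 to 12.5 CPM.

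The response of Wnt4 differed in the other direction, with an interaction of -1.01 (edgeR adjusted p = 0.0339). All 3 combined libraries were below all 3 TGFβ libraries, and all 3 NNMTi libraries were above all 3 controls. In Wnt7a and Wnt4 the adjusted p ranged up to 0.14 and 0.116 over the alternatives and down to 0.00023 and 0.00766.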

How the results depend on the processing

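Of 110 member values (22 members in 5 comparisons), edgeR called 36 with all libraries, 53 were called in at least 1 setting and 57 in none, 26 of which changed sign in some setting. Member counts with any 1 library left out were 10 to 12 for TGFβ over control, 0 to 11 for NNMTi over control, 2 to 5 for the combined group over TGFβ, 13 to 16 for the combined group over NNMTi and 0 to 3 for the interaction. Counts over all genes were 4038 to 5166, 591 to 2179, 762 to 1938, 4098 to 6117 and 65 to 399 in the same order, against 4961, 1123, 1416, 4933 and 151 with all libraries. For NNMTi over control, members called were 4 in edgeR, 7 with DESeq2, 10 with voom, 9 with only those groups and 11 without TGFβ replicates 2 and 3, and all genes called were 3064 with voom, 2931 with only those groups and 2464 without TGFβ replicates 2 and 3. Scaling by library size alone gave 204 higher and 1036 lower genes there, against 335 and 788. The combined group over TGFβ gave 6 members with voom and 408 genes when only those groups were fitted. The interaction gave 306 genes with no filter, 266 with DESeq2, 483 with voom and 350 without TGFβ replicates 2 and 3. The cause of these changes was not tested.

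Znrf3 for TGFβ over control changed sign to -0.022 with library size alone, and ranged from -0.27 (without TGFβ replicate 1) to 0.304 (without TGFβ replicate 2) with 1 library left out. Same-numbered libraries correlated by -0.0847 to 0.202, with 1 of 18 pairs over 0.1, so the numbers were not taken to pair them, although 8 of 12 libraries correlated best with their own number. With the replicate block edgeR called 0 members in the interaction (Wnt7a adjusted p = 0.0551, Wnt4 adjusted p = 0.056), where DESeq2 without a block called 2. With the block the Lef1 call for NNMTi over control was lost (adjusted p = 0.0615) and Axin2 passed (adjusted p = 0.0193), and no other member call changed. Of 53 pathway gene values that could be named, 43 kept their call in every setting and 0 changed sign. Family sum ratios kept their direction with library size alone and with each library of the pair left out (Wnt over control with TGFβ 1.55 to 1.69). Depth limits most the TGFβ group, where 3 counts in replicate 3 are 1.16 CPM.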
